A study of Danio rerio with 24 samples.

Results

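The slc25a genes encode the mitochondrial carrier family, the largest group of solute transporters of the mitochondrial inner membrane. They were chosen here as every row of the deposited RNA table whose gene symbol, in either case, starts with slc25a. This gave 57 of 30263 genes, and all 57 passed the filter on low values used for testing. Below, the family and its members mean these 57 rows. Relatives with other symbols, such as ucp2 and ucp3, are described apart. Intestines of zebrafish larvae had been dissected at 5, 7 and 9 days post fertilization (dpf). All larvae were wild type of the AB strain and carried tg(cldn15la:GFP), a transgene that labels intestinal epithelium, so no group without it exists in these data. RNA was depleted of ribosomal RNA and sequenced from 3 libraries per age, each made from a pool of 10 intestines. No treatment was compared: the comparisons are between ages, 7 against 5, 9 against 7 and 9 against 5 dpf, over days in which larvae begin to feed.

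Carriers of this family move nucleotides, phosphate, carboxylates, amino acids, carnitine esters, iron and cofactors between the cytosol and the mitochondrial matrix. Most work as exchangers, trading a molecule on the cytosolic side for another on the matrix side, and together they couple the citric acid cycle, fatty acid oxidation, heme synthesis and oxidative phosphorylation to the rest of the cell. Enterocytes, which absorb dietary fat and use glutamine as a fuel, depend on them for fatty acid oxidation and amino acid metabolism. Zebrafish keep duplicated copies, marked a and b, of many carriers that are single genes in mammals. The cargo given for a carrier is the one known for its mammalian relative, except where zebrafish is named.

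Values are normalized read counts, which are read counts divided by a size factor for each library, and they are not scaled to transcript length. Levels are therefore compared between ages for a gene, and not between genes. A gene is said to rise or fall where its limma adjusted p, corrected over all 24298 genes tested, was under 0.05. The libraries held 7014333 to 14327144 reads, and a gene with no read could have had up to 3, or 0.209 to 0.428 RPM (reads per 1000000 of the library), which covers counting error only. Over the 9 libraries the mean value of a member ran from 15.3 to 37639.8, with a median of 162.5. Whether the pools of a given age shared a clutch or a collection day is not stated in the labels. The p values therefore reflect variation among pools only, and some of it may be technical. All 9 of 9 listed intestinal epithelium markers had reads in these libraries. So did every row found for listed markers of other tissues, and each library had reads for 28869 to 29464 genes. Having reads therefore cannot tell which tissue was sampled. Symbols are those of the deposited table. In the reference gene table the row called slc25a22 is named slc25a55a and 1 of the 5 rows written "(1 of many)" is named si:dkey-251i10.1, and such near-copies may share reads, so their values are uncertain.

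From 5 to 9 dpf, 6 carrier genes rose and 1 fell. Those that rose were slc25a40 (mitochondrial glutathione import), slc25a20 (the carnitine and acylcarnitine carrier), slc25a23b (a calcium-regulated ATP-Mg/phosphate carrier), slc25a38a (glycine import for heme synthesis), slc25a44b (branched chain amino acids) and slc25a26 (S-adenosylmethionine). The gene that fell was slc25a48, whose mammalian relative has been reported to carry choline. Of all genes tested, 16.8% were called in this comparison, 12.6% higher and 4.28% lower at 9 dpf. The members' 12.3% called, 10.5% higher and 1.8% lower, was near or below that background, so the number of changed carriers is not a result about the family. Unadjusted p was under 0.05 for 20 members. The share of all genes tested at that unadjusted p was not counted, though it is at least the 16.8% called. Neither this number nor the like ones below is a result about the family. Without 9 dpf pool 2 the count of calls was 2 higher and 1 lower. Without 5 dpf pool 2 it was 4 higher and 3 lower, and without both it was 1 higher and 3 lower. Scaled to RPM it was 3 higher (slc25a40, slc25a20 and slc25a23b) and 12 lower. Quantile and cyclic loess scaling each gave 5 higher and 7 lower, and those lower were slc25a48, slc25a43, slc25a37, slc25a36b, slc25a33, slc25a25a and the row slc25a22. RPM scaling called these lower too, along with slc25a25b, slc25a21, slc25a32a, slc25a4 and slc25a23a. The calls over all 24298 genes tested moved with the setting too, and the members' counts are to be read beside them. With the authors' size factors 4094 were called (3053 or 74.6% higher at 9 dpf) and with TMM 4474 (2839 or 63.5%). Quantile scaling called 5118 (2723 or 53.2% higher), cyclic loess 5221 (2875 or 55.1%) and RPM scaling 5612 (1318 or 23.5%). Without 9 dpf pool 2 it was 1820 (1430 higher), without 5 dpf pool 2 it was 2785 (1898 higher) and without both 1601 (1011 higher). In bulk tissue, fewer cells of a type and less RNA per cell cannot be told apart. The summed value of the epithelium markers was 126100 to 200600 in 9 dpf pools, against 54970 to 100500 in 5 dpf pools, with 4 of 9 higher and none lower, and its part in these changes was not tested. Markers of other tissues were also read: 5 of 14 skeletal muscle rows were lower and none higher, with a summed value of 1043 to 1200 at 9 dpf, against 1466 to 2223 at 5 dpf. Of enteric neuron markers 2 of 10 rows were lower, of liver markers 2 of 13, of smooth muscle markers 1 of 11 and of exocrine pancreas markers none of 11, while 2 of 8 leukocyte rows were higher. Every one of these rows had reads, and their part in the changes was not tested either.

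**Figure D1:**
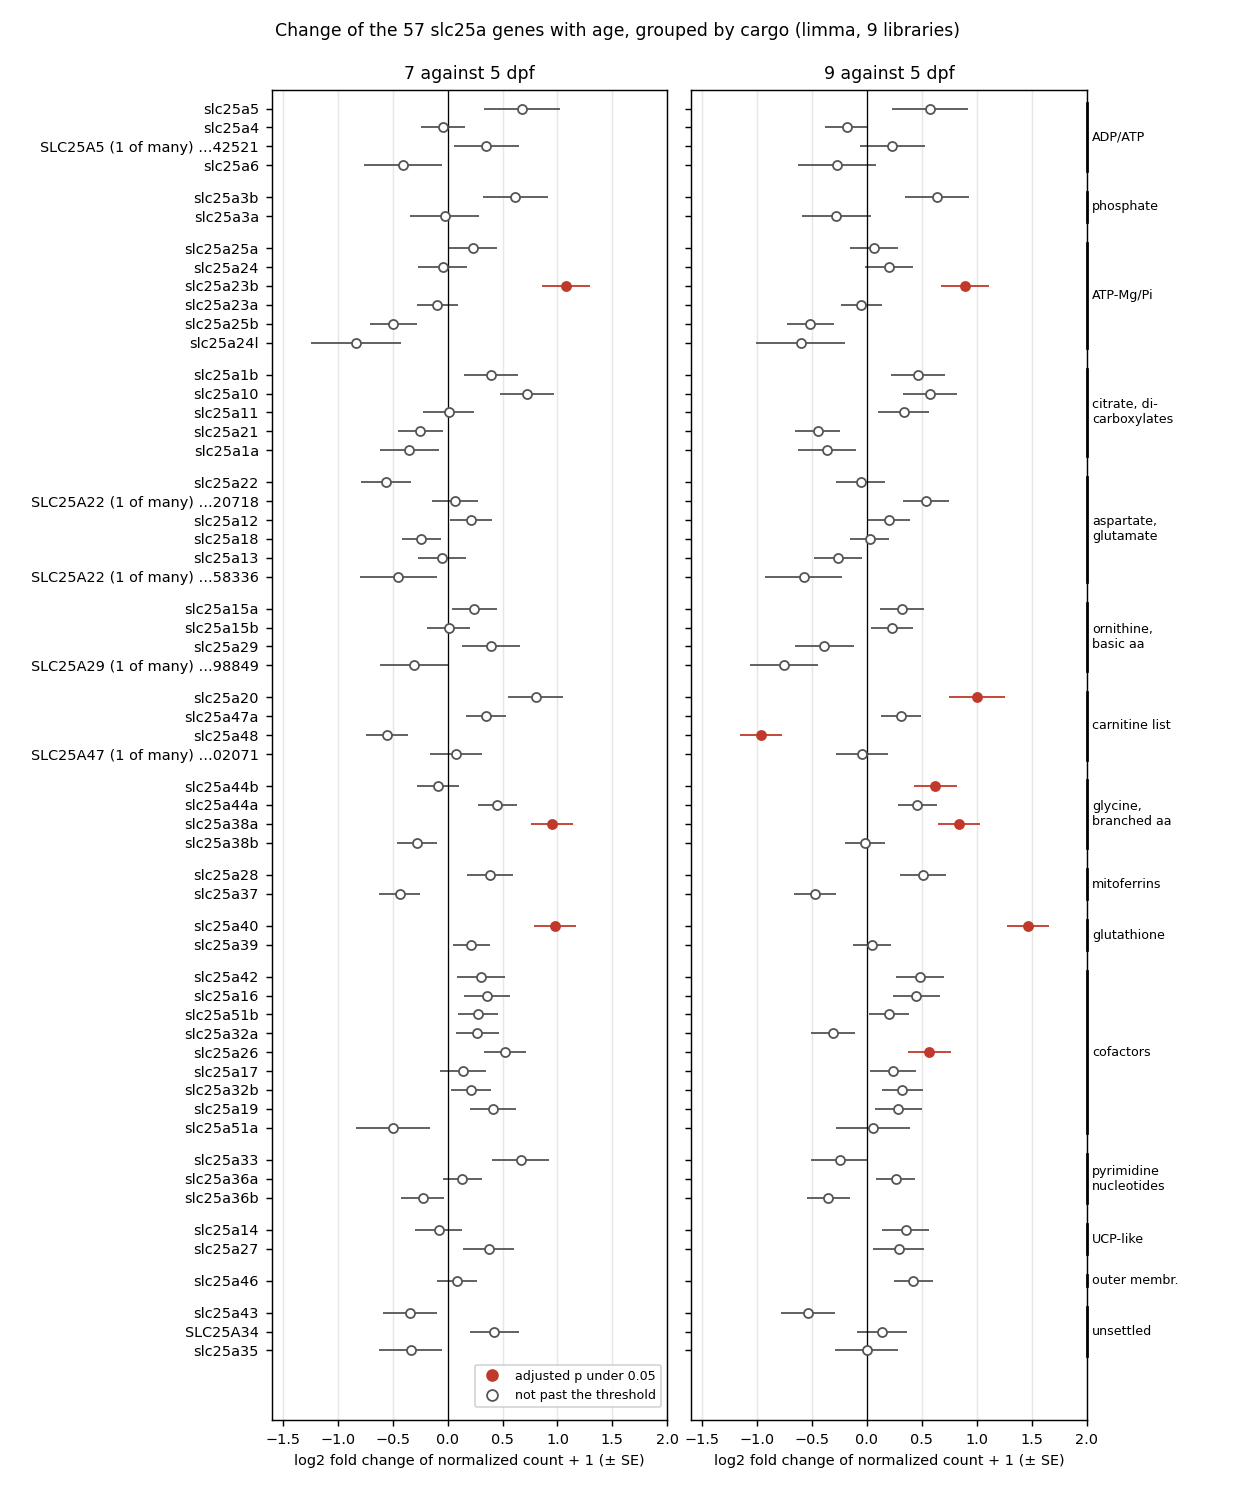
Log2 fold change (horizontal axis, on normalized count + 1, bars ± SE from limma) of all 57 slc25a genes at 7 against 5 dpf (left) and 9 against 5 dpf (right), grouped by cargo and, for rows written (1 of many), tagged with the end of the gene identifier. Filled red points have an adjusted p under 0.05: 3 genes on the left, all to the right of 0, and 7 on the right, of which slc25a48 alone lies below 0.

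slc25a40 (ENSDARG00000015856) had the largest rise at 9 against 5 dpf among the 57 slc25a rows. Together with slc25a39 it imports glutathione, the main thiol antioxidant, which is made in the cytosol. Its pools held 120, 97.9 and 124 normalized counts at 5 dpf, 236, 190 and 254 at 7 dpf and 256, 388 and 315 at 9 dpf. Every 7 and 9 dpf pool lay above every 5 dpf pool. The rise at 9 against 5 dpf was 2.76-fold (log2 1.46, SE 0.19, limma adjusted p = 1.93e-05). It was already present at 7 against 5 dpf (log2 0.98, SE 0.19, limma adjusted p = 0.00424), while 9 against 7 dpf was not called (log2 0.48, adjusted p = 0.206). Both calls held under each of the 20 other settings and left-out libraries tried. slc25a39, its close relative, averaged 170 ± 16.1 at 9 dpf, against 165 ± 14.5 at 5 dpf (SD, n = 3 each), a log2 difference of 0.05.

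slc25a20 (ENSDARG00000040401) brings long chain acylcarnitines into the matrix for beta-oxidation in exchange for free carnitine. It held 628, 466 and 860 normalized counts at 5 dpf, 1136, 886 and 1331 at 7 dpf and 1095, 1625 and 1136 at 9 dpf. Each 9 dpf pool was above each 5 dpf pool. The gene rose 2.0-fold at 9 against 5 dpf (log2 1.0, SE 0.25, limma adjusted p = 0.00877). At 7 against 5 dpf its log2 difference was 0.80 and it was not called (adjusted p = 0.075). There 6 of 20 other settings called it higher, quantile, cyclic loess and RPM scaling among them (range of adjusted p 0.00567 to 0.293). At 9 against 5 dpf its adjusted p was over the threshold without 9 dpf pool 2, and the range over all settings was 0.000743 to 0.154.

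slc25a48 (ENSDARG00000021250) was listed with the carnitine carriers by its family number, but its mammalian relative has been reported to move choline, so the member of that list that fell may not do what the list's name says. Its pools held 163, 120 and 124 normalized counts at 5 dpf, 82.0, 103 and 90.7 at 7 dpf and 56.9, 70.7 and 79.3 at 9 dpf. All 9 dpf pools lay below all 5 dpf pools. It fell 1.95-fold at 9 against 5 dpf (log2 -0.96, SE 0.19, limma adjusted p = 0.0015), and this call held under all 20 other settings. The other members of the list, slc25a47a and the row SLC25A47 (1 of many), of unsettled substrate, had log2 differences of 0.31 and -0.05 and were not called.

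slc25a23b (ENSDARG00000024708) exchanges ATP-Mg for phosphate and so sets the size of the adenine nucleotide pool of the matrix. Its values were 303, 259 and 352 normalized counts at 5 dpf, 597, 548 and 795 at 7 dpf and 519, 747 and 458 at 9 dpf. All pools of 7 and 9 dpf were above those of 5 dpf. The rise at 7 against 5 dpf was 2.11-fold (log2 1.08, SE 0.22, limma adjusted p = 0.00604), the largest among the slc25a rows in that step. The call held under all 20 other settings. At 9 against 5 dpf it was 1.86-fold (log2 0.89, SE 0.22, limma adjusted p = 0.00761), but the call was lost without 9 dpf pool 2 (range of adjusted p over settings 0.000912 to 0.13). Among the other 5 members of its cargo group none was called with the authors' size factors. slc25a24l and slc25a25b had the lowest log2 differences of the group at 9 against 5 dpf, -0.60 and -0.51, while those of slc25a24, slc25a25a and slc25a23a lay between -0.05 and 0.20.

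slc25a38a (ENSDARG00000059805) is needed for heme synthesis, which starts from glycine in the matrix, and both zebrafish copies have been linked to it. It held 73.5, 74.6 and 94.5 normalized counts at 5 dpf, 161, 121 and 195 at 7 dpf and 131, 146 and 156 at 9 dpf. Every pool of the later ages exceeded every 5 dpf pool. It rose at 7 against 5 dpf (log2 0.95, SE 0.19, limma adjusted p = 0.00573) and at 9 against 5 dpf (log2 0.84, SE 0.19, limma adjusted p = 0.00466). Scaled to RPM instead, neither call was made, and the one at 9 against 5 dpf was also lost without both pools numbered 2 (ranges of adjusted p over all settings 0.000752 to 0.0707 and 0.00147 to 0.181). The b copy averaged 129 ± 14.8 at 9 dpf, against 132 ± 30.2 at 5 dpf (SD, n = 3 each). Markers of red blood cells, which make most heme, summed to 378 to 451 at 9 dpf, against 529 to 636 at 5 dpf, with reads for all 10 rows found and none called in either direction. Their part in the values of heme-linked carriers was not tested.

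slc25a44b and slc25a26 were called less firmly. slc25a44b (ENSDARG00000035905) held 347, 247 and 283 normalized counts at 5 dpf, 270, 256 and 294 at 7 dpf and 368, 517 and 468 at 9 dpf. The 7 dpf pools were within the range of the 5 dpf pools and all 9 dpf pools were above it. Its log2 rise at 9 against 5 dpf was 0.62 (SE 0.19, limma adjusted p = 0.03), and 11 of 20 other settings made the same call. slc25a26 (ENSDARG00000058208) held 116, 80.2 and 101 at 5 dpf, 158, 119 and 149 at 7 dpf and 127, 181 and 135 at 9 dpf. Its log2 rise was 0.57 (SE 0.19, limma adjusted p = 0.0465), and 10 of 20 other settings made the same call. Both calls were lost without 9 dpf pool 2 or 5 dpf pool 2, among others (ranges of adjusted p 0.0149 to 0.364 for slc25a44b and 0.0334 to 0.662 for slc25a26). slc25a44a, the other copy, was not called (log2 0.46, adjusted p = 0.0813).

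**Figure D2:**
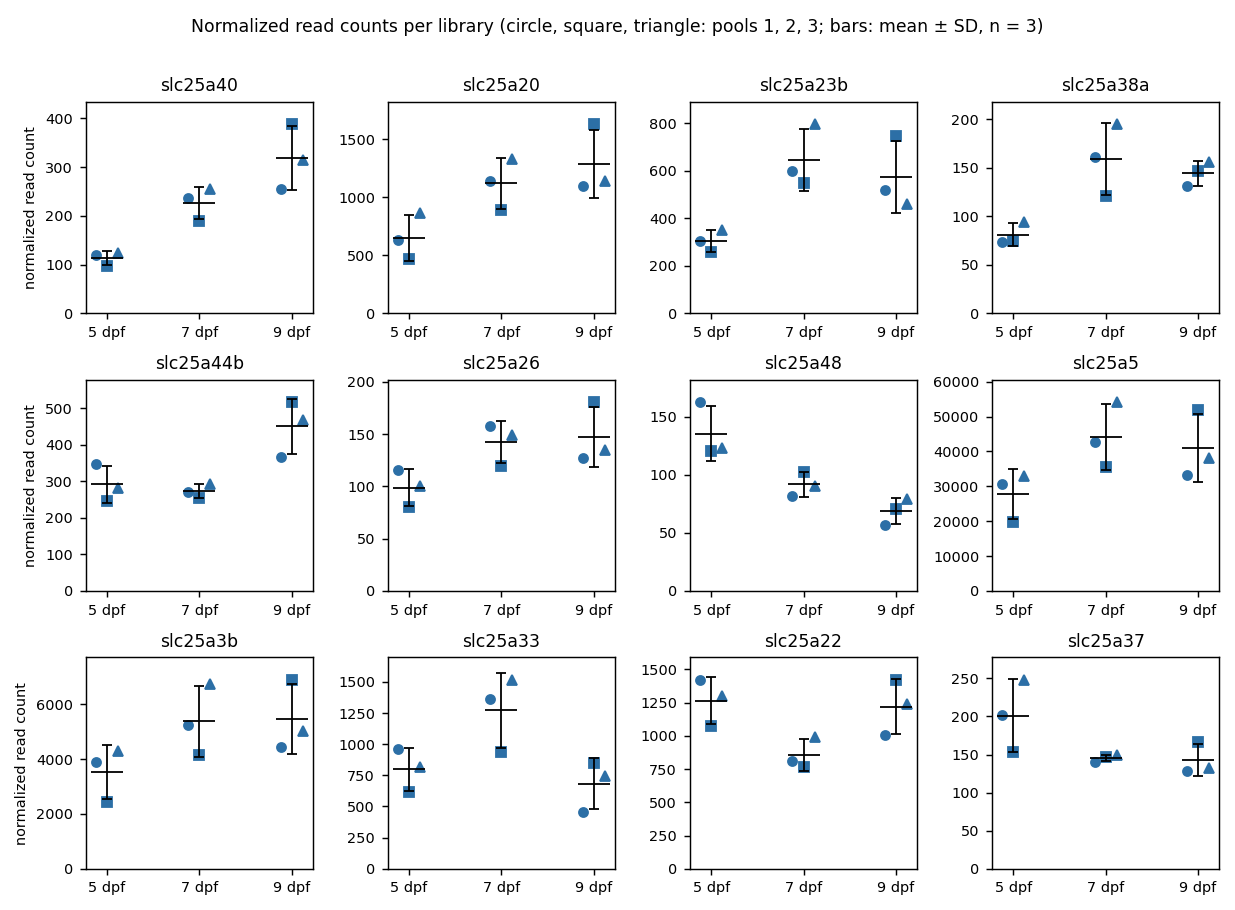
Normalized read counts (vertical axis, linear from 0) of 12 carrier genes in each of the 9 libraries, by age on the horizontal axis; marker shape gives the pool number and bars the mean ± SD of 3 pools. slc25a40 sits between 256 and 388 at 9 dpf and between 97.9 and 124 at 5 dpf, slc25a48 is lower at 9 than at 5 dpf, and for slc25a5, slc25a3b and slc25a20 the square of pool 2 is the highest at 9 dpf and the lowest at 5 dpf.

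The step at 7 against 5 dpf called 3 members, slc25a23b, slc25a40 and slc25a38a, all higher, or 5.3% of the family. Of all genes tested 2.63% were called higher, 1.43% lower and 4.05% in either direction, so the share is near the background. Unadjusted p was under 0.05 for 13 members, these 3 included. Over all genes that number was not counted, here and in the comparisons that follow. Leaving out 7 dpf pool 2 gave 5 members called higher, beside 1528 of all genes tested called, 1165 of them higher. For the later step, 9 against 7 dpf, limma with the authors' size factors called 0 members, with 8 at an unadjusted p under 0.05. Of all genes tested, 1.5% were called higher there, 0.383% lower and 1.88% in either direction. edgeR and DESeq2, run on the recovered reads, each called slc25a44b higher and slc25a33 lower at 9 than at 7 dpf. The difference of the 2 steps tests whether a gene moved unequally in them. It was called for 0 members by limma with the authors' size factors, with 7 at an unadjusted p under 0.05. Of all genes tested, limma called 0.642% higher, 0.362% lower and 1% in either direction. The difference was called for 0 members by edgeR and for 1, slc25a33, by DESeq2. With quantile, cyclic loess or RPM scaling limma called it below 0 for slc25a33 and slc25a23b and above 0 for slc25a44b and the row slc25a22. Quantile and RPM scaling also called it below 0 for slc25a5. Of all genes tested these 3 scalings called 802, 850 and 737, against 244 with the authors' size factors. In all, limma with the authors' size factors called 7 members in at least 1 age comparison and 50 in none.

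slc25a33 (ENSDARG00000039931), a pyrimidine nucleotide carrier that supplies mitochondrial DNA and RNA synthesis, had its highest values at 7 dpf. It held 959, 618 and 813 normalized counts at 5 dpf, 1361, 935 and 1515 at 7 dpf and 454, 853 and 743 at 9 dpf. The 9 and 7 dpf pools did not overlap. Its log2 difference at 9 against 7 dpf was -0.91 (SE 0.26), past the threshold by edgeR and DESeq2. With the authors' size factors limma did not call it (adjusted p = 0.0688). Limma did call it with TMM (adjusted p = 0.0416), quantile (adjusted p = 0.000346) and cyclic loess scaling (adjusted p = 0.000175). In RPM it held 44.8, 60.6 and 64.7 at 9 dpf, against 131, 103 and 125 at 7 dpf, and there limma made the call (log2 -1.09, adjusted p = 0.000156). The related slc25a36a and slc25a36b had log2 differences of 0.26 and -0.35 at 9 against 5 dpf and were not called.

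slc25a5 (ENSDARG00000092553) is an ADP/ATP carrier that exports new ATP from the matrix. It took 59.9% to 69.1% of all reads on the 57 slc25a rows, a share of reads that is not per transcript length. It held 30650, 19640 and 33020 normalized counts at 5 dpf, 42740, 35400 and 54100 at 7 dpf and 33180, 51910 and 38110 at 9 dpf. The gap between the lowest 9 dpf and the highest 5 dpf pool was small beside the spread, and it was not called (log2 0.57, SE 0.35, limma adjusted p = 0.254). As a share of all reads of a library it took 0.300% to 0.331% at 5 dpf, 0.391% to 0.446% at 7 dpf and 0.328% to 0.369% at 9 dpf, so the 7 dpf pools stood above the other ages. Scaled to RPM, slc25a5 was called higher at 7 against 5 dpf (log2 0.39, limma adjusted p = 0.00925). Quantile scaling made the same call (log2 0.324, limma adjusted p = 0.0176), so 2 of 20 other settings did. With the authors' size factors the 7 dpf pools lay above the 5 dpf pools too, without a call (log2 0.68, limma adjusted p = 0.329). The other ADP/ATP carrier rows, slc25a4, slc25a6 and SLC25A5 (1 of many), had log2 differences of -0.19, -0.27 and 0.23 at 9 against 5 dpf, none called. slc25a3b, which brings in the phosphate that ATP synthase uses, held 3881, 2430 and 4310 at 5 dpf, 5242, 4152 and 6723 at 7 dpf and 4438, 6881 and 5013 at 9 dpf, and was not called at 9 against 5 dpf (log2 0.64, adjusted p = 0.136).

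The carboxylate, glutamate and ornithine carriers had no member called by limma with the authors' size factors in any age comparison. slc25a1b, which exports citrate for fatty acid synthesis, held 1217, 827 and 1204 normalized counts at 5 dpf, 1453, 1155 and 1628 at 7 dpf and 1162, 1806 and 1516 at 9 dpf, so the ages overlapped. At 9 against 5 dpf the dicarboxylate carrier slc25a10 and the oxoglutarate carrier slc25a11 had log2 differences of 0.57 and 0.33. That of slc25a21, which carries oxodicarboxylates, was -0.45. At 7 against 5 dpf slc25a10 was not called (log2 0.725, limma adjusted p = 0.103). There 4 of 20 other settings called it higher, quantile, cyclic loess and RPM scaling among them (range of adjusted p 0.0193 to 0.45). The row slc25a22, placed with the glutamate carriers by that symbol, held 1420, 1074 and 1303 at 5 dpf, 813, 767 and 994 at 7 dpf and 1007, 1417 and 1237 at 9 dpf. All its 7 dpf pools lay below the others. With the authors' size factors limma did not call it at 7 against 5 dpf (log2 -0.56, adjusted p = 0.19). Limma called it lower in that step in RPM (log2 -0.85, adjusted p = 4.67e-05). The same call was made with quantile (log2 -0.868, limma adjusted p = 6.75e-05) and cyclic loess scaling (log2 -0.874, limma adjusted p = 4.45e-05). The aspartate/glutamate carriers slc25a12 and slc25a13, which serve the malate-aspartate shuttle, differed by log2 0.20 and -0.26. The ornithine carrier slc25a15a held 192, 121 and 195 at 5 dpf, 171, 186.5 and 238 at 7 dpf and 187, 236.5 and 200.2 at 9 dpf, which overlap. It and slc25a15b differed by log2 0.32 and 0.23 at 9 against 5 dpf.

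The remaining cargo groups held no further call at 9 against 5 dpf with the authors' size factors. Among the 9 cofactor carriers, slc25a26 was called and the log2 differences ran from -0.31 for slc25a32a, a folate and FAD carrier, to 0.57. slc25a42, a coenzyme A carrier, held 439, 304 and 409 normalized counts at 5 dpf, 425, 420 and 576 at 7 dpf and 413, 558 and 647 at 9 dpf, which overlap. slc25a17 belongs to this list but sits in the peroxisome, not the mitochondrion, and differed by log2 0.24. The mitoferrins bring iron into the matrix: slc25a28, broadly expressed, held 484, 399 and 526 at 5 dpf, 624, 514 and 710 at 7 dpf and 564, 776 and 676 at 9 dpf (9 against 5 dpf log2 0.51, adjusted p = 0.0928). slc25a37, the mitoferrin known from zebrafish red blood cells, differed by log2 -0.47 (adjusted p = 0.0855), and 7 of 20 other settings called it lower, TMM, quantile, cyclic loess and RPM scaling among them (range of adjusted p 0.000843 to 0.281). slc25a14, related to uncoupling proteins, held 248, 158 and 230 at 5 dpf, 154, 201 and 247 at 7 dpf and 216, 273 and 319 at 9 dpf, and differed by log2 0.35 at 9 against 5 dpf. slc25a46, which sits in the outer membrane and acts in mitochondrial fission, held 143, 106 and 142 at 5 dpf, 122.5, 137 and 154 at 7 dpf and 162, 196 and 165 at 9 dpf, with all 9 dpf pools above those of 5 dpf but no call (log2 0.42, adjusted p = 0.106). slc25a43, of unsettled substrate, held 368, 207 and 320 at 5 dpf, 234, 164.5 and 312 at 7 dpf and 153, 241 and 214 at 9 dpf, so the ages overlapped (log2 -0.54, adjusted p = 0.132). It was called lower at 9 against 5 dpf in 5 of 20 other settings, quantile, cyclic loess and RPM scaling among them (range of adjusted p 0.000221 to 0.366). In RPM it held 15.1, 17.2 and 18.6 at 9 dpf, against 38.3, 31.6 and 32.1 at 5 dpf, which do not overlap. Over the 50 members called in no age comparison, the log2 difference at 9 against 5 dpf ran from -0.75 for the row SLC25A29 (1 of many) to 0.64 for slc25a3b.

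Pairs of related carriers were then set against each other. A ratio taken within a library cancels its scaling, apart from the 1 added to each value, and is given as a description of pairs picked after their values were seen. The log2 ratio of slc25a40 to slc25a39 averaged -0.53 ± 0.06 at 5 dpf, 0.23 ± 0.15 at 7 dpf and 0.89 ± 0.25 at 9 dpf (SD, n = 3 each). For slc25a28 to slc25a37 it was 1.24 ± 0.15 at 5 dpf, 2.06 ± 0.23 at 7 dpf and 2.22 ± 0.11 at 9 dpf. In both pairs every 7 and 9 dpf pool had a higher ratio than every 5 dpf pool. slc25a38a to slc25a38b averaged -0.69 ± 0.12 at 5 dpf, 0.53 ± 0.37 at 7 dpf and 0.17 ± 0.24 at 9 dpf. slc25a23b to slc25a23a averaged 0.29 ± 0.22 at 5 dpf, 1.46 ± 0.14 at 7 dpf and 1.23 ± 0.37 at 9 dpf. The 5 dpf ratios of these pairs also lay below all later ones. The ratio of the folate carriers slc25a32a and slc25a32b was lowest at 9 dpf, at 0.92 to 1.2 over the 5 dpf pools, 1.11 to 1.21 over the 7 dpf pools and 0.08 to 0.87 over the 9 dpf pools. The branched chain carriers slc25a44b and slc25a44a were at 1.07 ± 0.22 at 5 dpf, 0.53 ± 0.06 at 7 dpf and 1.23 ± 0.16 at 9 dpf, with the 5 and 9 dpf pools overlapping. The ornithine carrier copies slc25a15a and slc25a15b overlapped between 9 dpf and each earlier age, at 0.51 ± 0.17 at 5 dpf, 0.74 ± 0.16 at 7 dpf and 0.59 ± 0.19 at 9 dpf. Most of the pairs taken overlapped between 9 and 5 dpf. Those not given above that overlapped were slc25a25a to slc25a25b, slc25a3b to slc25a3a, slc25a51b to slc25a51a and slc25a24 to slc25a24l. So did slc25a12 to slc25a13, and slc25a47a, slc25a29 and slc25a5 to the (1 of many) rows of their names. The 9 dpf ratios lay above those of 5 dpf for slc25a36a to slc25a36b, slc25a1b to slc25a1a and the row ENSDARG00000020718 to slc25a22.

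**Figure D3:**
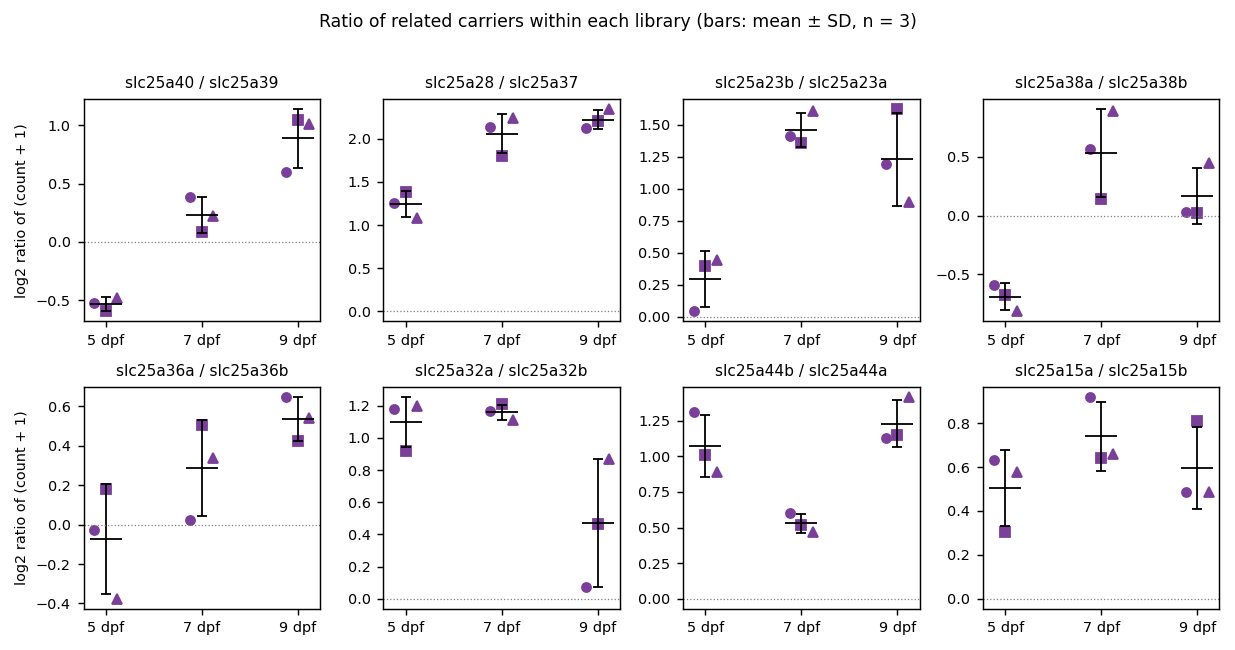
Log2 ratio of (normalized count + 1) for 8 of 18 pairs of related carriers (vertical axes differ between panels), by age, with marker shape for the pool number and bars for mean ± SD of 3 pools. For slc25a40 over slc25a39 the 9 dpf pools sit between 0.60 and 1.04 and the 5 dpf pools between -0.59 and -0.48; slc25a32a over slc25a32b is lower at 9 dpf than before, and slc25a15a over slc25a15b overlaps between 9 and 5 dpf.

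Seen over the whole family, the median log2 difference at 9 against 5 dpf was 0.20, beside -0.04 over all genes tested, but in RPM it was -0.26 for the family, beside -0.49 for all genes, so the sign of the family's median depends on the scaling. Without 9 dpf pool 2 the family's median was 0.09 and its gap to that of all genes 0.11, without 5 dpf pool 2 these were 0.09 and 0.13, and without both 0.03 and 0.05. RPM scaling moved the median of all genes by -0.45, and the family's median stood 0.24 above that of all genes with the authors' scaling and 0.23 above it in RPM. With quantile or cyclic loess scaling that gap was 0.05 and 0.02. The mean was highest at 5 dpf in 17 members, at 7 dpf in 17 and at 9 dpf in 23, or 29.8%, 29.8% and 40.4%, beside 41%, 24.2% and 34.8% of all genes tested. The family took 0.501% to 0.517% of the reads at 5 dpf, 0.579% to 0.646% at 7 dpf and 0.502% to 0.549% at 9 dpf. Without slc25a5 those sums were 1863 to 2008 RPM at 5 dpf, 1884 to 1996 RPM at 7 dpf and 1746 to 1813 RPM at 9 dpf.

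Pools stood apart within an age. The sums of normalized counts were 10126616 to 14058095 at 9 dpf, against 6542557 to 9983920 at 5 dpf, with 9 dpf pool 2 the highest and 5 dpf pool 2 the lowest. 9 dpf pool 2 was the highest of its age in 59.6% of members and 42.6% of all genes tested, and 5 dpf pool 2 the lowest of its age in 70.2% of members and 47.9% of all genes. Other pools stood apart to a like degree. 7 dpf pool 3 was the highest of its age in 59.65% of members and 42.54% of all genes. 9 dpf pool 1 was the lowest in 63.16% and 41.45%, and 7 dpf pool 2 in 57.89% and 42.56%. The rise of slc25a40 and the fall of slc25a48 at 9 against 5 dpf were called with any 1 pool left out, without 5 and 9 dpf pool 2 together and in RPM.

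**Figure D4:**
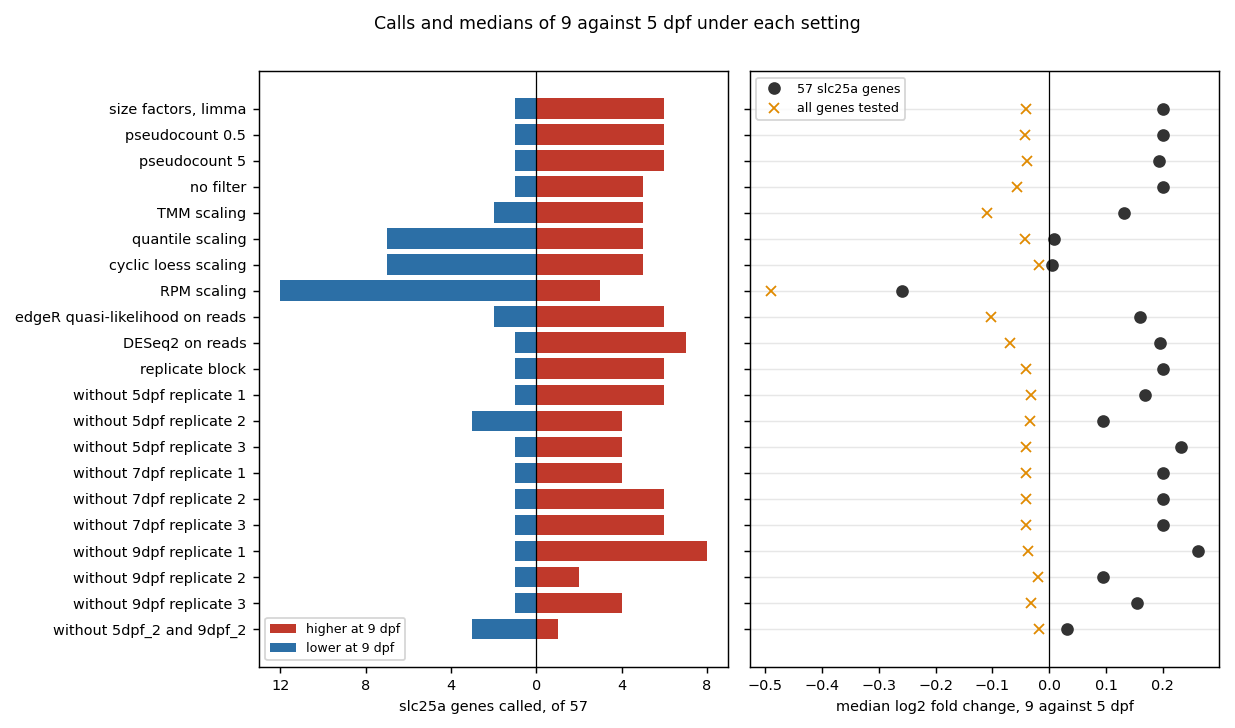
Left, number of the 57 slc25a genes called higher (red, to the right) and lower (blue, to the left) at 9 against 5 dpf under each setting; right, the median log2 fold change of the family (dots) and of all genes tested (crosses). The counts are 6 higher and 1 lower with the authors' size factors and 3 higher and 12 lower in RPM, where both medians move left together. Of all 24298 genes tested, 4094 (3053 higher) and 5612 (1318 higher) were called under these settings.

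Genes that work with the carriers were described from lists of linked genes. Their counts at 9 against 5 dpf with the authors' size factors are to be read beside the 12.6% higher and 4.28% lower of all genes tested. Other settings had another background over the 24298 genes. RPM scaling called 5612 (1318 higher), quantile scaling 5118 (2723 higher), cyclic loess 5221 (2875 higher), TMM 4474 (2839 higher) and edgeR 4608 (3096 higher). Without 9 dpf pool 2 it was 1820 (1430 higher) and without 5 dpf pool 2 it was 2785 (1898 higher). Carriers are made in the cytosol, pass the outer membrane through the TOM complex, are escorted by small TIM proteins and enter the inner membrane through TIM22. Of 15 rows for this import path, 10 rose at 9 against 5 dpf and none fell, with a median log2 difference of 1.02, beside -0.04 over all genes tested. The receptor tomm70a had a log2 rise of 1.07 (adjusted p = 0.00311), tomm22 of 1.31 (adjusted p = 0.00044), the small chaperones timm8b of 1.5 (adjusted p = 0.000144) and timm9 of 1.09 (adjusted p = 0.000954) and agk, a subunit of the TIM22 complex in mammals, of 1.02 (adjusted p = 0.0015), all by limma and all called in each of 20 other settings. The small chaperone timm13 and the channel TIMM22 had log2 rises of 1.17 (adjusted p = 0.0143) and 1.22 (adjusted p = 0.0125), each called in 15 of 20 other settings. Both calls were lost in RPM and without pool 2 of either age (ranges of adjusted p 0.00533 to 0.212 for timm13 and 0.000168 to 0.221 for TIMM22). Of the pair of rows named tomm20a, ENSDARG00000103163 rose (log2 1.37, limma adjusted p = 0.000178) and ENSDARG00000090656 did not pass (log2 -0.40, adjusted p = 0.115). The import count was 6 higher and none lower without 9 dpf pool 2, the same without 5 dpf pool 2, and 6 higher and 1 lower in RPM, while TMM, quantile and cyclic loess scaling and edgeR each gave 10 higher and 1 lower.

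Of 12 other mitochondrial transporters and channels, 3 rose and none fell at 9 against 5 dpf, though with quantile or cyclic loess scaling 5 fell and in RPM 6 fell. ucp2 and ucp3, uncoupling proteins that belong to the same protein family under another name, had log2 rises of 1.80 (limma adjusted p = 0.000109) and 1.93 (limma adjusted p = 4.88e-07). Both were high by 7 dpf, with log2 rises at 7 against 5 dpf of 1.66 and 2.24 (limma adjusted p = 0.000961 and 1.70e-07). ucp1 did not pass (log2 -0.29, adjusted p = 0.571). Of the carnitine shuttle, which works around slc25a20, 4 of 8 genes rose and none fell, led by cpt1ab, the outer membrane palmitoyltransferase (log2 1.62, limma adjusted p = 0.000181). That count was 1 without 9 dpf pool 2, and 2 rose and 2 fell in RPM.

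Among genes of citrate export and lipogenesis, 3 of 6, me1, cs and aclya, rose and none fell, while RPM scaling gave 2 higher and 1 lower. The aclya call (log2 0.75, limma adjusted p = 0.0255) was made in 12 of 20 other settings and lost without either pool 2, among others (range of adjusted p 0.00225 to 0.266). me1, the cytosolic malic enzyme that makes NADPH, had the largest change of the linked genes, at 760, 1024 and 850 normalized counts at 9 dpf, against 67.1, 76.5 and 65.6 at 5 dpf (log2 3.63, SE 0.18, limma adjusted p = 2.32e-11). cs, citrate synthase, had a log2 rise of 1.45 (limma adjusted p = 0.000847), and fasn, fatty acid synthase, did not pass (log2 -0.12, adjusted p = 0.663). Of the glutathione genes, beside slc25a40, 3 of 7 rose and none fell. They were gclm, which regulates glutathione synthesis (log2 1.2, limma adjusted p = 0.00162), and gsr, glutathione reductase (log2 1.38, limma adjusted p = 0.0009). The third was gpx4a, a glutathione peroxidase that reduces lipid peroxides (log2 1.33, limma adjusted p = 0.00771). Without 9 dpf pool 2 the gpx4a call was lost and the count was 2 (range of its adjusted p 7.7e-06 to 0.0718). Of the iron and heme genes 2 of 7 rose, fech, which inserts iron into heme (2.24-fold, limma adjusted p = 0.000424), and nfs1, the sulfur donor for iron-sulfur clusters (log2 1.72, limma adjusted p = 5.87e-06). With quantile or cyclic loess scaling 2 of these 7 rose and 1 fell. alas1 and alas2, which use the glycine, did not pass, at log2 -0.04 and -0.43.

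The malate-aspartate shuttle had 1 of 6 genes higher, got2b (log2 0.74, limma adjusted p = 0.0374), a call that 11 of 20 other settings made. The urea cycle and ornithine list had 1 of 7 higher, arg2, mitochondrial arginase (log2 1.41, limma adjusted p = 0.00434), and the list's count of higher genes ran from 0 to 3 over the settings. For mitochondrial biogenesis 1 of 10 was higher, tfam, which packs mitochondrial DNA (log2 0.77, limma adjusted p = 0.00893), and the call was lost without 9 dpf pool 2. ppargc1a did not pass (log2 -0.22, adjusted p = 0.405). The shares of these 3 lists that were higher are near the 12.6% of all genes. None of the genes in these lists fell with the authors' scaling, but quantile, cyclic loess and RPM scaling each called 2 of the biogenesis genes lower.

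**Figure D5:**
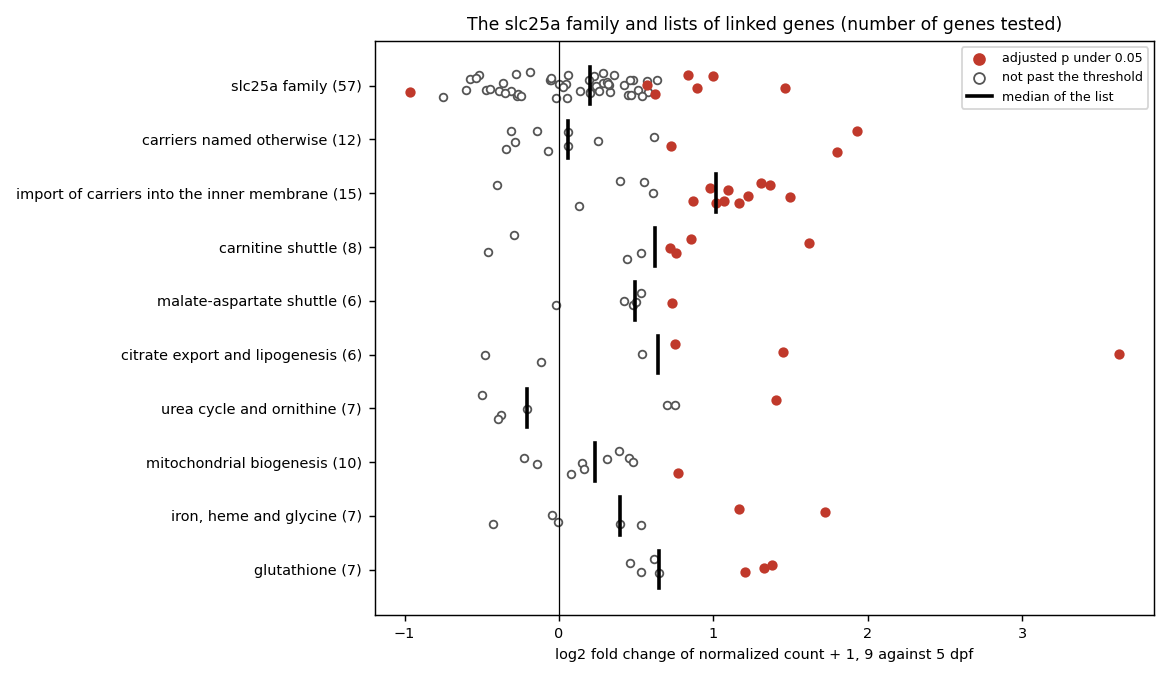
Log2 fold change on normalized count + 1 (horizontal axis) at 9 against 5 dpf for the 57 slc25a genes and 9 lists of linked genes, 1 point per gene row, red where the adjusted p is under 0.05, with a black bar at each list's median. The import list centres on 1.02 and the slc25a family on 0.20; me1, at 3.63, is the point farthest to the right.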

How the data were processed

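RNA values were deposited by the authors as a signal, normalized read counts: reads per gene divided by a size factor per library. The submitters' processing notes list the build GRCz10, the aligner STAR 2.5.2b and the package DESeq2 1.16.1; the counter and strand setting are not given in the sources used here. Whole reads were recovered for 100% of values within a tolerance of 1e-06. The 24298 genes that reached 10 in 3 libraries were tested with limma 3.58.1 (trend, robust) on log2(value + 1), which understates changes of low genes, fitting the 9 libraries jointly and adjusting p within a contrast by Benjamini-Hochberg; the script was tested on simulated data. Alternatives were pseudocounts of 0.5 and 5, no filter, other scalings, edgeR 4.0.16 and DESeq2 1.42.0 on the recovered reads, a replicate block and each library left out. RPM scaling and leaving out 2 libraries together were added after seeing the data. Each member called with a 2-fold change, otherwise the member with the highest mean of its cargo list, is given per library, as are the other called members. The members and lists were chosen with earlier results of these data known. Histone mark peaks were not analysed here.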

Additional observations from a re-analysis of the deposited data

How the results depend on the processing

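At 7 against 5 dpf (3 higher, 0 lower) the counts were 6 and 2 with quantile, 5 and 2 with cyclic loess and 5 and 4 with RPM scaling, and DESeq2 called 1 lower; leaving out a library gave 3 to 5 higher, with 5 without 7 dpf pool 2. At 9 against 7 dpf (0 and 0) members were 1 and 1 with TMM, edgeR, DESeq2 and the replicate block, and 1 and 2 with quantile and RPM. They were 2 and 2 with cyclic loess, 0 and 1 without 5 and 9 dpf pool 2 together, and 0 to 1 each way with a library left out. All genes called there went from 458 to 650 with TMM, 1552 with quantile, 2044 with cyclic loess and 1224 with RPM. edgeR called 790, DESeq2 868 and the replicate block 790. Without both pools it was 317, and with a library left out 101 to 1001. At 9 against 5 dpf (6 and 1) members were 5 and 2 with TMM, 5 and 7 with quantile or cyclic loess, and 3 and 12 with RPM. They were 6 and 2 with edgeR, 1 and 3 without both pools, and 2 to 8 higher and 1 to 3 lower with a library left out. All genes called there went from 4094 to 4474 with TMM, 5118 with quantile, 5221 with cyclic loess and 5612 with RPM. edgeR called 4608. Without both pools it was 1601, and with a library left out 1820 to 4722. The difference of steps (0 and 0) gave 2 and 3 with quantile or RPM, 2 and 2 with cyclic loess, and 1 lower with DESeq2 and without both pools. With a library left out it gave 0 to 2 lower, the 2 without 7 dpf pool 2. All genes called for it went from 244 to 802 with quantile, 737 with RPM, 850 with cyclic loess and 383 with DESeq2. Without both pools it was 306, and with a library left out 54 to 437. The family's median reversed with RPM, to -0.15 at 7 against 5 and -0.26 at 9 against 5 dpf, and that at 9 against 7 dpf, -0.01, ran from -0.077 to 0.081 with a library left out. slc25a25a reversed at 9 against 5 dpf, to log2 -0.35 with quantile (adjusted p = 0.0203), -0.37 with cyclic loess (0.0153) and -0.40 with RPM scaling (0.0176), where the authors' scaling gave 0.06 (0.872). The cause was not tested.

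Same-number pools correlated at -0.42 to 0.47 after age means were removed, so the numbers were not read as pairs. The replicate block gave 3 and 0 at 7 against 5, 1 and 1 at 9 against 7 and 6 and 1 at 9 against 5 dpf. Over all genes tested it called 1240, 790 and 4148 in these comparisons. Promoter peaks of the members and their alternatives were not run, since gene positions on GRCz10 were not used here. Few reads limit some members: slc25a24l, at a mean of 13.5 at 9 dpf and 20.4 at 5 dpf, had the highest SE, 0.41. slc25a5, with the most reads of the family, had an SE of 0.35.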
